A study of Homo sapiens with 12 samples.

Results

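The 10 genes described here encode surface proteins through which an antigen-presenting cell instructs T cells: the B7-family members CD80, CD86, CD274 (PD-L1), PDCD1LG2 (PD-L2), ICOSLG, CD276 (B7-H3) and VSIR (VISTA), the galectin LGALS9, the TNF-receptor-family protein CD40 and the TNF-family ligand CD70. They were taken by symbol from the 78892 genes of the count table, each through 1 Ensembl gene. Messenger RNA had been sequenced from OCI-Ly7, a human cell line established from a germinal-centre-type diffuse large B-cell lymphoma. In a 2 by 2 arrangement of 4 groups with 3 libraries each, cells received vehicle, an HDAC3 inhibitor (15 µM on days 2 and 4), 5-azacitidine (100 nM every day from day 0 to day 4) or both drugs, here called the combination, and were collected on day 5. The sources used here do not say which compound the inhibitor was, and the title of the series gives its question as whether the pair acts better against this lymphoma. Vehicle cells received 0 nM 5-azacitidine and 0 µM inhibitor, all groups are the same line, and the labels name no T cells or other partner cells in the cultures. Separate cultures are not stated for the 3 libraries of a group, and p-values then measure only how these libraries vary, which may be technical variation.

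B7 proteins are ligands on B cells, dendritic cells and macrophages. CD80 and CD86 bind CD28 on T cells and give the costimulatory signal that accompanies antigen, and they also bind the inhibitory receptor CTLA-4. CD274 and PDCD1LG2 bind PD-1 and restrain T cells, ICOSLG engages ICOS on follicular helper T cells, and VSIR and CD276 mostly act as inhibitory molecules. CD40 receives help from CD40 ligand on T cells and switches on NF-kB in the B cell, while CD70 engages CD27. HDAC3 removes acetyl groups from histones as the enzyme of the NCoR and SMRT co-repressor complexes, which BCL6 recruits in germinal-centre B cells. 5-azacitidine is a cytidine analogue that enters RNA and DNA and traps DNA methyltransferases, so that methylation of CpG is lost as cells divide. DNA methylation and histone acetylation were not measured in these libraries.

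Because the drugs bear on chromatin and on CpG methylation, the promoter windows of the 5 members that rose most with the inhibitor are shown, each from 250 bases before to 50 bases after a RefSeq start (build GRCh38.p14), 5′ to 3′ on the strand of the gene, with every CG in capitals. CD86 is chr3:122055112-122055411 on the plus strand, CD80 is chr3:119559565-119559864 on the minus strand and LGALS9 is chr17:27630938-27631237 on the plus strand. CD274 is chr9:5450292-5450591 on the plus strand and VSIR is chr10:71773471-71773770 on the minus strand.
CD86: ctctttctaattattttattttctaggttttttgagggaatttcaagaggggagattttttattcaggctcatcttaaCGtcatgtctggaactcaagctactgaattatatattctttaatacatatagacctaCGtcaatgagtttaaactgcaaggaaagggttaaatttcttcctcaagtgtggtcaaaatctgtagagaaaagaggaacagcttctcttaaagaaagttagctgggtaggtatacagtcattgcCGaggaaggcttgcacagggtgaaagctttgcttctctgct
CD80: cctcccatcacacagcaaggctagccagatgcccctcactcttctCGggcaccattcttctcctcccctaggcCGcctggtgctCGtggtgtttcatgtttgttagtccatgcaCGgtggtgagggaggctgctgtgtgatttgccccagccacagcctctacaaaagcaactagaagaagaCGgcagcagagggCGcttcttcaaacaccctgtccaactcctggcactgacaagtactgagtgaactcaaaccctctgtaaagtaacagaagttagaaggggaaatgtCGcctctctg
LGALS9: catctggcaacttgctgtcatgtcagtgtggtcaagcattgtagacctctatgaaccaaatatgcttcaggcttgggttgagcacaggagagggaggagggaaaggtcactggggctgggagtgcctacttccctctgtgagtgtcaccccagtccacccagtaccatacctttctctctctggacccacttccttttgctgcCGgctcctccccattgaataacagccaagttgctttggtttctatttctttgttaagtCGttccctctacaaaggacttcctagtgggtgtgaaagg
CD274: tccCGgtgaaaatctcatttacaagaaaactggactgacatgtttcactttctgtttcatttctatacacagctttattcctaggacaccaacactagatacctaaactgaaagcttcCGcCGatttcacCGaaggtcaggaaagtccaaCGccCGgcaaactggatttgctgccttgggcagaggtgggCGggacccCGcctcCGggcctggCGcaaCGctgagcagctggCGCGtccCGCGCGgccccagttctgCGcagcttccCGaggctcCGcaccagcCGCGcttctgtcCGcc
VSIR: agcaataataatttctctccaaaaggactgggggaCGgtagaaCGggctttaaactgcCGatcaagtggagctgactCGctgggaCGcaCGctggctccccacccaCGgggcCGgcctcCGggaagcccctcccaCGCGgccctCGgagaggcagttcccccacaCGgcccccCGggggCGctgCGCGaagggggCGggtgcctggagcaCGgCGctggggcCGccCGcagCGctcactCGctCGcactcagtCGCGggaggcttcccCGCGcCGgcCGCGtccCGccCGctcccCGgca
CD86 held 3 CG, CD80 held 7 and LGALS9 held 2, against a median of 14 over 35116 RefSeq promoters of this length, with quartiles of 4 and 28. The CD274 window held 22 and the VSIR window 35. Of all promoters, 18.2% held fewer than CD86, 11.0% fewer than LGALS9, 36.8% fewer than CD80, 62.3% fewer than CD274 and 85.9% fewer than VSIR. The genes that rose most with the inhibitor thus included both CpG-poor and CpG-rich promoters. RefSeq windows were matched for 7 of the 10 genes. ICOSLG had 42 CG and the 2 windows of CD276 had 37 and 28, and a second CD86 start had 4. PDCD1LG2, CD40 and CD70 are named only. The LGALS9 window lies downstream of the gene start in the count annotation, by 1390 bases.

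The letters GAAANNGAAA, a form of the element bound by interferon regulatory factors, were searched on both strands. They occurred in 3.57% of all promoters and in 2 of the members' windows, those of CD274 and LGALS9. In the excerpts the capitals mark the matches, which lie on the strand opposite to the one shown.
CD274: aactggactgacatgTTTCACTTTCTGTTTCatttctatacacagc
LGALS9: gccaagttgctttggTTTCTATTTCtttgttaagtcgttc
CD274 had 2 overlapping matches, from -208 to -193 relative to the start. LGALS9 had 1 match, from 9 bases before the start to the start itself. The STAT element TTCNNNGAA was found in 7.66% of all promoters and, among the members, once in the CD274 window. The kappaB motif of NF-kB was found in 11.3% of all promoters and in the windows of VSIR, the second CD86 start and the second CD276 start. These matches describe the letters of the windows and carry no evidence of binding.

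Libraries held between 35947872 and 36337086 counts, and levels are given as CPM, that is counts scaled to a library total of 1000000. A gene was tested where it passed a filter on low counts, and was called where the edgeR quasi-likelihood test gave an adjusted p (Benjamini-Hochberg over 17869 genes) under 0.05. Of the 10 genes, 8 passed the filter and PDCD1LG2 and CD276 did not. CD80 and LGALS9 passed through the groups in which they were higher, so the counts of called members below lean towards a difference for these genes. In vehicle, replicate 1 held 7 counts of LGALS9, under the filter's minimum of about 10. Mitochondrially encoded genes took 9.59% to 15.3% of the counts, with the highest shares in replicate 1 of 5-azacitidine (13.8%) and replicate 3 of the combination (15.3%). Replicate 1 of 5-azacitidine also differed most from its partners, where chi-square divided by its degrees of freedom was 26.5 and 23.9 over genes and 3.50 to 16.1 for the other pairs within a group. Results that moved without these 2 libraries are given with both values. Leaving them out does not remove the difference in share between the inhibitor and vehicle groups. In bulk RNA, more cells with a transcript and more transcript per cell cannot be told apart.

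The label of a B-cell lymphoma was checked against 10 B-cell markers, all of which had counts in every group. Their summed level was 3200 to 3291 CPM in vehicle, 4072 to 4129 with the inhibitor, 3362 to 3447 under 5-azacitidine and 4130 to 4201 under both drugs. Single markers went both ways. Against vehicle 6 rose and 3 fell with the inhibitor (all genes, 26.4% and 24.9%) and again with the combination (all genes, 29.6% and 27.5%). Under 5-azacitidine 2 rose and 1 fell (all genes, 4.31% and 4.75%). Markers of other cells that carry these ligands moved as well. With the inhibitor 6 of 7 tested T- and NK-cell markers rose and 1 fell, 2 of 4 tested monocyte and macrophage markers rose, and 4 of 4 tested dendritic-cell markers rose. Of all tested genes 26.4% rose and 24.9% fell in that comparison. Tested markers near 0 in vehicle passed the filter through the groups in which they were higher, so these counts lean towards a rise. LILRA4, 1 of the 4 dendritic-cell markers, was at 0 in vehicle. LYZ and CSF1R, the 2 monocyte and macrophage markers that rose, did so 44.2-fold and 16.9-fold in a list of low vehicle level. Among 11 T- and NK-cell markers, CD2, CD8A and GNLY were at 0 in vehicle, inhibitor and 5-azacitidine libraries, and CD8A and KLRD1 in the combination. Their sum was 178 to 197 CPM in vehicle, 326 to 333 with the inhibitor, 231 to 249 under 5-azacitidine and 334 to 354 under both drugs, most of it from the T-cell receptor constant genes TRAC and TRBC2. These 2 moved in opposite directions with the inhibitor, TRAC by 1.43 and TRBC2, the marker that fell, by -0.27 (adjusted p = 0.00028). Of 10 monocyte and macrophage markers, S100A8 was at 0 in all libraries and S100A9 in 3 of the 4 groups. The sum was 1.03 to 2.21 CPM in vehicle, 3.15 to 3.74 with the inhibitor, 1.47 to 1.85 under 5-azacitidine and 4.79 to 5.08 under both drugs. Of 10 dendritic-cell markers, CLEC9A, FCER1A and CLEC10A were at 0 in all libraries. That sum was 39.4 to 40.6 CPM in vehicle, 132 to 136 with the inhibitor, 45.5 to 46.9 under 5-azacitidine and 158 to 163 under both drugs, most of it from CD1C, which B cells also express. Under 5-azacitidine 2 of 7 tested T- and NK-cell markers, 0 of 4 monocyte and macrophage markers and 1 of 4 dendritic-cell markers rose. Of these markers 0 fell (all genes, 4.31% rose and 4.75% fell). With the combination 6 of 7, 2 of 4 and 4 of 4 rose and 0 fell (all genes, 29.6% and 27.5%). The 3 sums were thus higher with the inhibitor and the combination, while under 5-azacitidine the monocyte and macrophage sum overlapped vehicle. The part of these lists in the results below was not tested.

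With the inhibitor 6 of the 8 tested members rose and 0 fell. Of all tested genes 26.4% rose in that comparison. CD86, CD80, CD274, VSIR, LGALS9 and CD70 were the 6, and the median log2 fold change of the 8 was 1.29, beside 0.00 for all tested genes. With 5-azacitidine 5 rose and 0 fell, namely CD86, LGALS9, ICOSLG, CD40 and CD70, where 4.31% of all tested genes rose. The median of the 8 was 0.32, beside 0.00 for all genes. It includes CD80, which had 2 counts in each of the 2 groups compared. With the combination 7 rose against vehicle and 0 fell, where 29.6% of all genes rose, and the median was 1.58 beside 0.01. ICOSLG was the member without a call. Libraries that did not overlap between groups are named below for single genes. Of all tested genes, 30.2% were higher in every inhibitor library than in every vehicle library, and 29.4% were lower. The higher share was 12.3% for 5-azacitidine and 30.9% for the combination against vehicle. For the combination it was 29.4% against 5-azacitidine and 13.3% against the inhibitor.

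**Figure D1:**
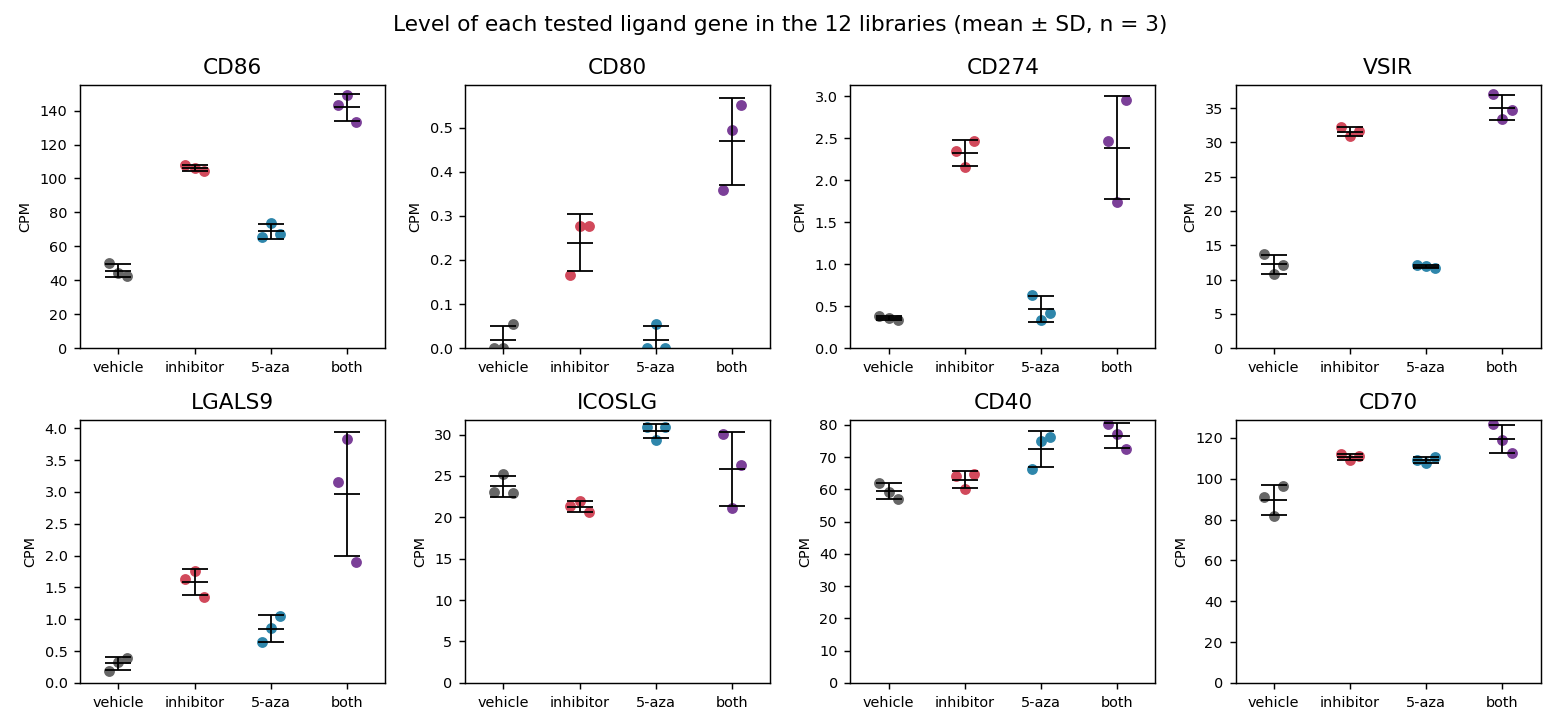
Level of each tested member in CPM (vertical axis, linear from 0, a different range in each panel) in the 4 groups; points are libraries, the horizontal marks are mean and SD of 3. CD86, CD80, CD274, VSIR and LGALS9 stand higher in the inhibitor and combination libraries than in vehicle, while CD40 and ICOSLG shift by less.

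Among the costimulatory B7 genes, CD86 (ENSG00000114013, chromosome 3, 122055362 to 122121139, plus strand of GRCh38) was by far the more abundant of the CD28 ligands. CD86 stood at 50.3, 44.4 and 42.5 CPM in the vehicle libraries, 108, 106 and 105 with the inhibitor, 65.7, 73.9 and 67.0 under 5-azacitidine and 143, 149 and 134 under both drugs. No 2 groups overlapped, and the order was vehicle, 5-azacitidine, inhibitor, combination. The inhibitor raised CD86 by a log2 fold change of 1.21 ± 0.06 (SE, adjusted p = 7.36e-15), a 2.32-fold change, and 5-azacitidine raised it by 0.59 ± 0.06 (adjusted p = 5.5e-07), a 1.50-fold change. With the combination CD86 rose by 1.64 ± 0.06 (adjusted p = 7.14e-18), a 3.11-fold change against vehicle, and exceeded the inhibitor by 0.43 ± 0.06 (adjusted p = 5.37e-05) and 5-azacitidine by 1.05 ± 0.06 (adjusted p = 7.59e-14). CD86 was the member with the smallest adjusted p in the comparisons of the inhibitor, of 5-azacitidine and of the combination with vehicle.

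CD80 (ENSG00000121594, chromosome 3, 119524293 to 119559614, minus strand), the other CD28 and CTLA-4 ligand, was near the detection limit. Its counts were 0, 0 and 2 in the vehicle libraries, 6, 10 and 10 with the inhibitor, 0, 2 and 0 under 5-azacitidine and 13, 18 and 20 under both drugs. The libraries with the inhibitor, alone or combined, were all above those without it, and a library of this depth with 0 counts allows up to 3 counts, or 0.0826 to 0.0835 CPM. The summed counts gave a ratio of 13.0 for the inhibitor against vehicle (26 against 2 counts, exact 95% interval 3.25 to 113) and 25.4 for the combination against vehicle (51 against 2, 6.69 to 216). Intervals and limits of this kind cover counting error only. In the edgeR fit CD80 was called higher with the inhibitor (adjusted p = 0.00166) and the combination (adjusted p = 2.67e-05). With only the inhibitor and vehicle libraries fitted, it did not pass the filter and was not tested. Vehicle and 5-azacitidine had 2 counts each, too few for a fold change. All 3 combination libraries exceeded the inhibitor libraries, which held for 13.3% of all tested genes. The log2 fold change was 0.97 with an interval of -0.09 to 2.03, and this difference did not pass the test (adjusted p = 0.286). TIMMDC1 shares 798 exonic bases with CD80 at its far end. It stood at 93.0 CPM in vehicle and 85.3 with the inhibitor, and was not called (log2 fold change -0.13, adjusted p = 0.0588).

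ICOSLG (ENSG00000160223, chromosome 21, 44215382 to 44241446, minus strand), the ligand of ICOS, was called higher with 5-azacitidine and, unlike CD86, not with the inhibitor. Its levels were 23.1, 25.2 and 23.0 CPM in vehicle, 21.4, 22.0 and 20.6 with the inhibitor, 30.9, 29.4 and 30.9 under 5-azacitidine and 30.1, 21.1 and 26.4 under both drugs. The 5-azacitidine libraries were above vehicle in every case and the inhibitor libraries below it, while the combination libraries spread over both. 5-azacitidine raised ICOSLG by 0.35 ± 0.08 on the log2 scale (adjusted p = 0.0075), a 1.28-fold change. The inhibitor difference of -0.16 ± 0.09 (interval -0.34 to 0.02, adjusted p = 0.124) and the combination difference of 0.12 ± 0.09 (interval -0.05 to 0.30, adjusted p = 0.223) did not pass the test. The combination was lower than 5-azacitidine (-0.23 ± 0.08, adjusted p = 0.0239) and higher than the inhibitor (0.29 ± 0.09, adjusted p = 0.0403), with overlapping libraries in both cases. Neither call was stable. The call over the inhibitor was lost without any of 5 of the 6 libraries compared, that is all but combination replicate 2 (adjusted p = 0.0849 to 0.266). The call against 5-azacitidine was lost without 5-azacitidine replicate 1 (0.114), with the filter of 5 CPM in 3 libraries (0.127) and with only those groups fitted (0.0569). Without the 2 libraries of high mitochondrial share the adjusted p became 0.112 against 5-azacitidine and 0.115 against the inhibitor. Without combination replicate 2, the lowest of its group, the adjusted p against 5-azacitidine was 0.217 and the rise against vehicle was called (0.24, adjusted p = 0.00732), as it was with the filter of 5 CPM (0.21, adjusted p = 0.0478). A second gene entry for ICOSLG on the same chromosome (ENSG00000277117, 5022531 to 5036771, plus strand) held 36.0% to 40.1% of the counts of both entries, and reads can be split between them. With both entries summed no call of ICOSLG changed. Fitted on its own, the second entry moved in the same directions and was not called. Its change was 0.26 for 5-azacitidine against vehicle (adjusted p = 0.0785). For the combination it was -0.19 against 5-azacitidine (adjusted p = 0.0721) and 0.20 against the inhibitor (adjusted p = 0.216).

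Of the coinhibitory B7 genes, CD274 (ENSG00000120217, chromosome 9, 5450503 to 5470566, plus strand), the main PD-1 ligand, was low in vehicle and changed with the inhibitor. It held 0.386, 0.360 and 0.333 CPM in vehicle, from 14, 13 and 12 counts, and 2.35, 2.15 and 2.46 with the inhibitor, from 85, 78 and 89 counts. With 5-azacitidine it held 0.634, 0.333 and 0.417 CPM, and with the combination 2.46, 1.73 and 2.96. Libraries with the inhibitor were all above those without it, whether or not 5-azacitidine was present. The inhibitor raised CD274 by 2.67 ± 0.28 on the log2 scale (interval 2.10 to 3.25, adjusted p = 7.08e-09), a 6.39-fold change. The combination raised it by 2.72 ± 0.28 (adjusted p = 3.12e-09), a 6.59-fold change, and differed from the inhibitor by 0.05 ± 0.21 (interval -0.39 to 0.48, adjusted p = 0.939). With 5-azacitidine the difference was 0.36 ± 0.35 (interval -0.37 to 1.08, adjusted p = 0.618). It was 0.03 without the 2 libraries of high mitochondrial share, which held the highest CD274 level of the 5-azacitidine group and of the combination group.

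PDCD1LG2 (ENSG00000197646, chromosome 9, 5510531 to 5571282, plus strand), the other PD-1 ligand and the neighbour of CD274, had 25 counts over all 12 libraries. They were 4, 2 and 0 in vehicle, 1, 3 and 0 with the inhibitor, 1, 1 and 7 under 5-azacitidine and 3, 0 and 3 under both drugs. The groups overlapped, and no difference was detectable at this depth. CD276 (ENSG00000103855, chromosome 15, 73683966 to 73714514, plus strand), a B7 protein of many solid tumours, had 0 counts in 11 libraries and 2 in combination replicate 1. For a group of 3 libraries with 0 counts, the limit of 3 counts is 0.0276 to 0.0277 CPM.

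VSIR (ENSG00000107738, chromosome 10, 71747556 to 71773520, minus strand), an inhibitory ligand best known from myeloid cells, responded to the inhibitor and not detectably to 5-azacitidine alone. It stood at 13.7, 10.9 and 12.1 CPM in vehicle, 32.2, 31.0 and 31.6 with the inhibitor, 12.1, 11.9 and 11.7 under 5-azacitidine and 37.1, 33.4 and 34.8 under both drugs. The inhibitor libraries and the combination libraries were far above the other 6, and vehicle and 5-azacitidine overlapped. The rise was 1.37 ± 0.08 with the inhibitor (adjusted p = 9.07e-14), a 2.58-fold change, and 1.53 ± 0.08 with the combination (adjusted p = 4.76e-15), a 2.88-fold change. 5-azacitidine gave -0.04 ± 0.09 (interval -0.22 to 0.13, adjusted p = 0.841). All 3 combination libraries exceeded the inhibitor libraries, which held for 13.3% of all tested genes. The difference of 0.16 ± 0.07 (interval 0.01 to 0.31) was not called (adjusted p = 0.212). VSIR lies within the span of CDH23, a cadherin gene of the opposite strand, and the counts were made without regard to strand. The 2 share 0 exonic bases. CDH23 summed to 199 counts in vehicle, to 1164 in the inhibitor group, to 195 under 5-azacitidine and to 1252 under both drugs, and rose with the inhibitor by 2.54 ± 0.12 (adjusted p = 2.07e-15). Reads of intronic CDH23 transcript over VSIR exons cannot be told apart from VSIR in these counts.

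LGALS9 (ENSG00000168961, chromosome 17, 27629798 to 27649560, plus strand) encodes galectin-9, a glycan-binding protein that engages TIM-3. It was raised by each drug and was highest with the pair. Its levels were 0.193, 0.332 and 0.388 CPM in vehicle, 1.63, 1.75 and 1.36 with the inhibitor, 0.634, 0.859 and 1.06 under 5-azacitidine and 3.16, 3.84 and 1.91 under both drugs. No 2 groups overlapped, in the order vehicle, 5-azacitidine, inhibitor, combination, although the combination libraries spread by 2.97 ± 0.980 CPM (mean ± SD, n = 3). The inhibitor raised LGALS9 by 2.36 ± 0.33 (adjusted p = 8.19e-07), a 5.14-fold change. 5-azacitidine raised it by 1.46 ± 0.36 (adjusted p = 0.00808), a 2.76-fold change and the largest among the members that had enough counts for a fold in that comparison. The combination raised it by 3.28 ± 0.30 (adjusted p = 5.56e-10), a 9.69-fold change, and exceeded the inhibitor by 0.91 ± 0.23 (adjusted p = 0.0153). The vehicle libraries held 7, 12 and 14 counts, so 1 library weighed heavily. The 5-azacitidine call ended without vehicle replicate 1 (1.22, adjusted p = 0.0603) or 5-azacitidine replicate 3 (1.30, adjusted p = 0.0505). The call of the combination over the inhibitor ended without replicate 1 or 3 of the inhibitor (adjusted p = 0.0518 and 0.0884) or replicate 1 or 2 of the combination (0.0599 and 0.0942). Without the 2 libraries of high mitochondrial share, 1 of which held the lowest LGALS9 level of the combination, that difference was 1.14 (adjusted p = 0.00199). LGALS9B and LGALS9C, its near-identical copies, had at most 10 counts in any group, and summing them with LGALS9 changed no call.

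CD40 and CD70 were the most abundant members per base of transcript together with CD86. CD40 (ENSG00000101017, chromosome 20, 46118271 to 46129863, plus strand), the receptor for T-cell help, stood at 62.1, 59.3 and 57.0 CPM in vehicle, 64.1, 60.2 and 64.9 with the inhibitor, 66.3, 75.0 and 76.4 under 5-azacitidine and 80.2, 77.1 and 72.5 under both drugs. The 5-azacitidine and combination libraries were all above vehicle, and the inhibitor libraries overlapped vehicle. CD40 rose with 5-azacitidine by 0.28 ± 0.06 (adjusted p = 0.00165), a 1.22-fold change, and with the combination by 0.37 ± 0.06 (adjusted p = 3.23e-06), a 1.29-fold change. It exceeded the inhibitor in the combination by 0.29 ± 0.06 (adjusted p = 0.00187). The inhibitor difference was 0.08 ± 0.06 (interval -0.04 to 0.20, adjusted p = 0.249). A filter of 5 CPM in 3 libraries left fewer genes, and the estimate itself then rose to 0.16 and was called (adjusted p = 0.0171). The cause of that shift was not tested.

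CD70 (ENSG00000125726, chromosome 19, 6583183 to 6604103, minus strand), the ligand of CD27, is normally brief on activated lymphocytes. It stood at 91.0, 81.8 and 96.2 CPM in vehicle, 112, 109 and 111 with the inhibitor, 109, 108 and 111 under 5-azacitidine and 127, 119 and 113 under both drugs. Every treated library exceeded every vehicle library, and the inhibitor and 5-azacitidine libraries overlapped each other. The inhibitor raised CD70 by 0.30 ± 0.06 (adjusted p = 0.000144), 5-azacitidine by 0.28 ± 0.06 (adjusted p = 0.00292) and the combination by 0.42 ± 0.06 (adjusted p = 1.19e-06), or 1.23-fold, 1.21-fold and 1.33-fold. The combination differed from the inhibitor by 0.12 ± 0.06 (adjusted p = 0.263) and from 5-azacitidine by 0.14 ± 0.06 (adjusted p = 0.0515), neither of which passed. Against 5-azacitidine the difference was called without the 2 libraries of high mitochondrial share (0.21, adjusted p = 0.0121).

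Levels can be set side by side between genes only per length. In CPM per kilobase of exon, the mean level in vehicle was 58.6 for CD70, 13.3 for CD86, 10.6 for CD40, 2.37 for VSIR, 1.22 for ICOSLG, 0.0876 for CD274, 0.0533 for LGALS9 and 0.0058 for CD80. With the combination the means were 78.1 for CD70, 41.3 for CD86, 13.6 for CD40, 6.81 for VSIR, 1.33 for ICOSLG, 0.580 for CD274, 0.519 for LGALS9 and 0.146 for CD80. The order of the genes was thus the same in these groups, and CD80, CD274 and LGALS9, which rose by most, were the lowest of the 8 in both. In the combination CD274 and LGALS9 were neighbours within their spread, with SDs of 0.150 and 0.172. ICOSLG is annotated with 19441 exonic bases, which lowers its value on this scale.

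**Figure D2:**
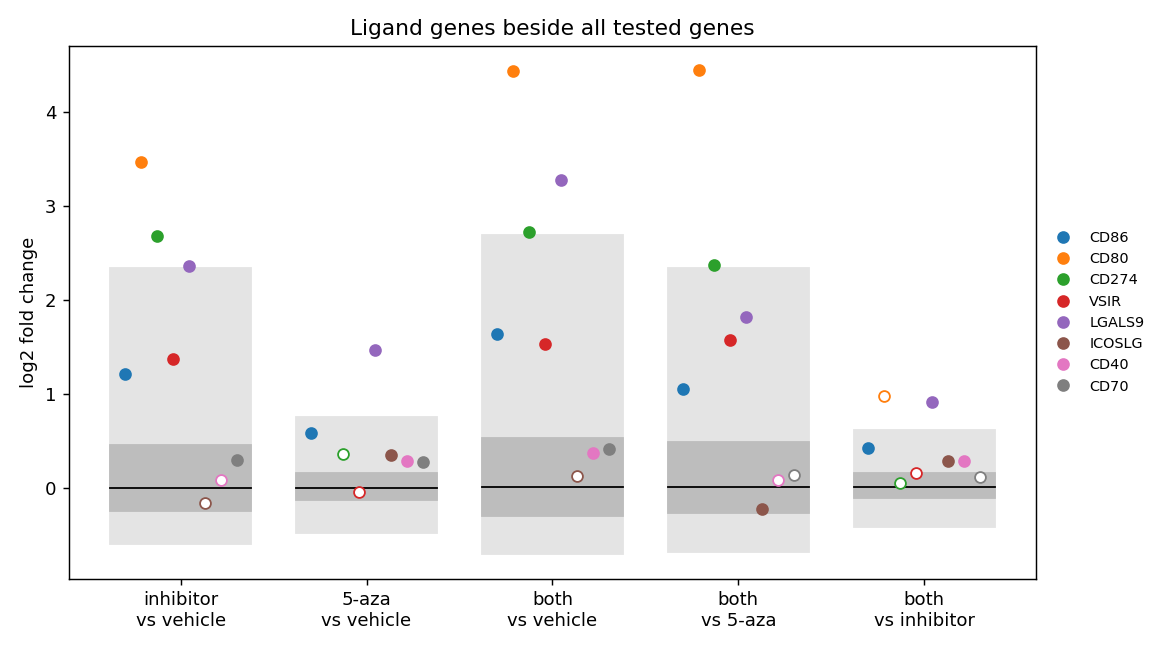
Log2 fold change (vertical axis) of each tested member in the 5 comparisons of 2 groups; filled points passed the test and open points did not. The dark band holds the middle of all 17869 tested genes (quartiles), the pale band runs from the 5th to the 95th percentile and the line is the median. CD80 is left out of 5-azacitidine against vehicle, where both groups had 2 counts. CD274 at 2.67 and LGALS9 at 2.36 lie above the pale band of the inhibitor comparison, and LGALS9 at 1.46 above that of 5-azacitidine.

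Set beside all tested genes, the inhibitor comparison had its 95th percentile at a log2 fold change of 2.34 and its upper quartile at 0.46. CD274, CD80 and LGALS9 lay above that percentile, CD86 and VSIR between the percentile and the quartile, and CD70 below the quartile. With 5-azacitidine the 95th percentile was 0.75. LGALS9 lay above it and CD86 at 0.59 just below, while ICOSLG, CD40 and CD70 were above the upper quartile of 0.16.

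The question of the design, whether the pair does more than each drug, was asked of each gene in 2 ways. Against the inhibitor alone, the combination was called higher for 4 of the 8 members and lower for 0, where 4.51% of all tested genes were higher. CD86, LGALS9, CD40 and ICOSLG were the 4, and the median of the 8 was 0.29 beside 0.01. That count fell to 2 without replicate 1 or 3 of the inhibitor or without replicate 1 of the combination, and to 3 without any of the other 3 libraries compared. CD86 and CD40 did not lose the call when any library was left out. Against 5-azacitidine alone, 5 members were higher, where 28.7% of all genes were, and 1 member, ICOSLG, was lower, where 25.1% of all genes were. CD80, CD86, CD274, VSIR and LGALS9 were the 5, and the median was 1.31 beside 0.01. The comparisons with vehicle share the vehicle libraries and those with the combination share the combination libraries, so they are not separate evidence.

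**Figure D3:**
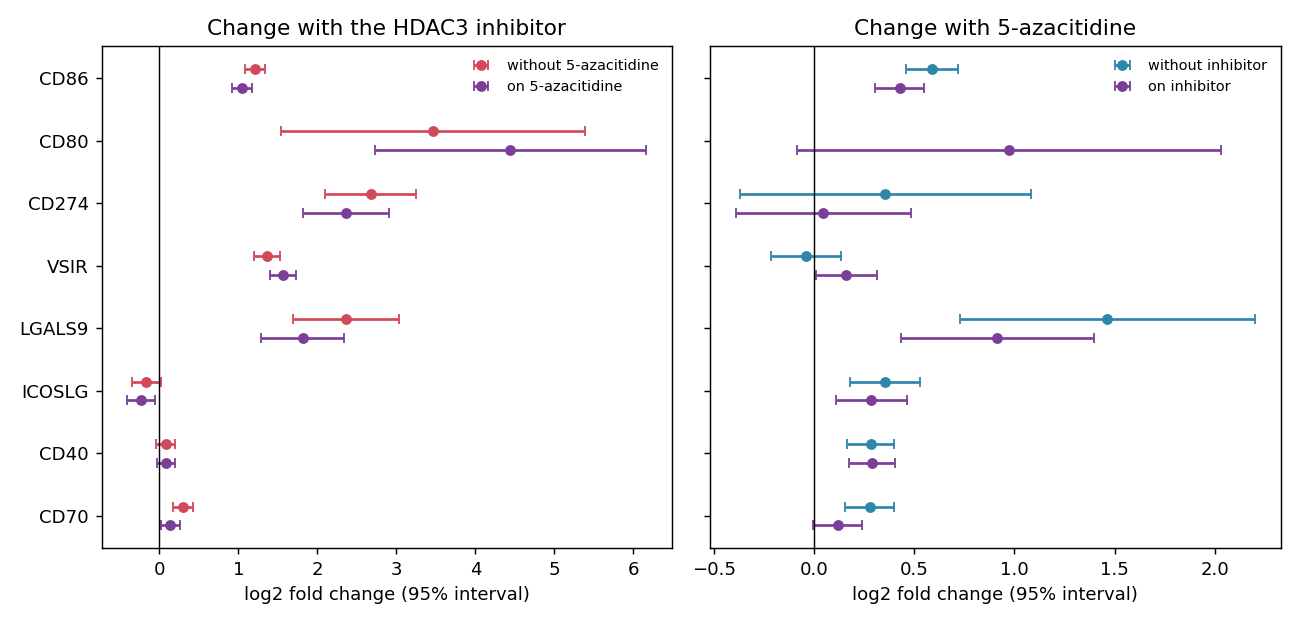
Log2 fold change with its 95% interval (horizontal axis) for each tested member (vertical axis): on the left the inhibitor against its matched control without or on 5-azacitidine, on the right 5-azacitidine without or on the inhibitor. CD80 rests on controls of 2 counts on the left and has no value for 5-azacitidine without inhibitor. For each gene with both values the intervals overlap, as with CD274 at 2.67 and 2.37 on the left and LGALS9 at 1.46 and 0.91 on the right.

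The interaction asks whether 5-azacitidine changed a gene by a different amount in the presence of the inhibitor. It was called for 0 of the 8 members with edgeR, where 0.716% of all tested genes were called. DESeq2, which gave no adjusted p for CD80, CD274 and LGALS9, and limma voom also called 0, and 0 members had an unadjusted p under 0.05 in edgeR. The estimates were -0.16 ± 0.09 for CD86 (interval -0.34 to 0.02), 0.20 ± 0.11 for VSIR (-0.03 to 0.43) and -0.16 ± 0.08 for CD70 (-0.33 to 0.01). They were 0.01 ± 0.08 for CD40 (-0.16 to 0.17) and -0.07 ± 0.12 for ICOSLG (-0.32 to 0.18). The intervals were wide for the low genes, -1.16 to 0.54 for CD274, -1.45 to 0.35 for LGALS9 and -2.58 to 4.53 for CD80. Departures from additive effects on the log scale within those intervals are not excluded. The sum of the 2 single-drug changes was 1.80 for CD86, where the combination gave 1.64. It was 0.36 for CD40 against 0.37, 1.33 for VSIR against 1.53, 3.83 for LGALS9 against 3.28 and 0.58 for CD70 against 0.42.

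CD274 and PDCD1LG2 lie side by side on chromosome 9, in a stretch that also holds JAK2. All tested genes within 500 kb of the pair were examined. With the inhibitor, RLN2 rose by 2.04 ± 0.43 (adjusted p = 0.000217), RLN1 by 1.10 ± 0.45 (adjusted p = 0.0413) and ERMP1 by 0.23 ± 0.07 (adjusted p = 0.00573). RLN1 and RLN2 are relaxin genes of near-identical sequence between which reads can be split, and each had at most 50 counts in any library. RIC1 fell by 0.44 (adjusted p = 9.69e-07), and so did ENSG00000286162, a gene on the opposite strand whose span covers CD274 in part and PDCD1LG2 whole, by 0.54 (adjusted p = 9.87e-05). JAK2 (0.16, adjusted p = 0.197), PLGRKT (-0.05, adjusted p = 0.704), KIAA2026 and RANBP6 were not called. PLGRKT starts 12.6 kb before CD274 and is the nearest tested gene on that side. It thus showed no call beside a 6.39-fold rise of CD274. The opposite-strand gene shares 0 exonic bases with CD274 and fell from 11.5 CPM in vehicle to 7.89 with the inhibitor, while CD274 rose. With 5-azacitidine neither CD274 nor these neighbours passed the test, the smallest adjusted p among the neighbours being 0.213 for the opposite-strand gene.

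**Figure D4:**
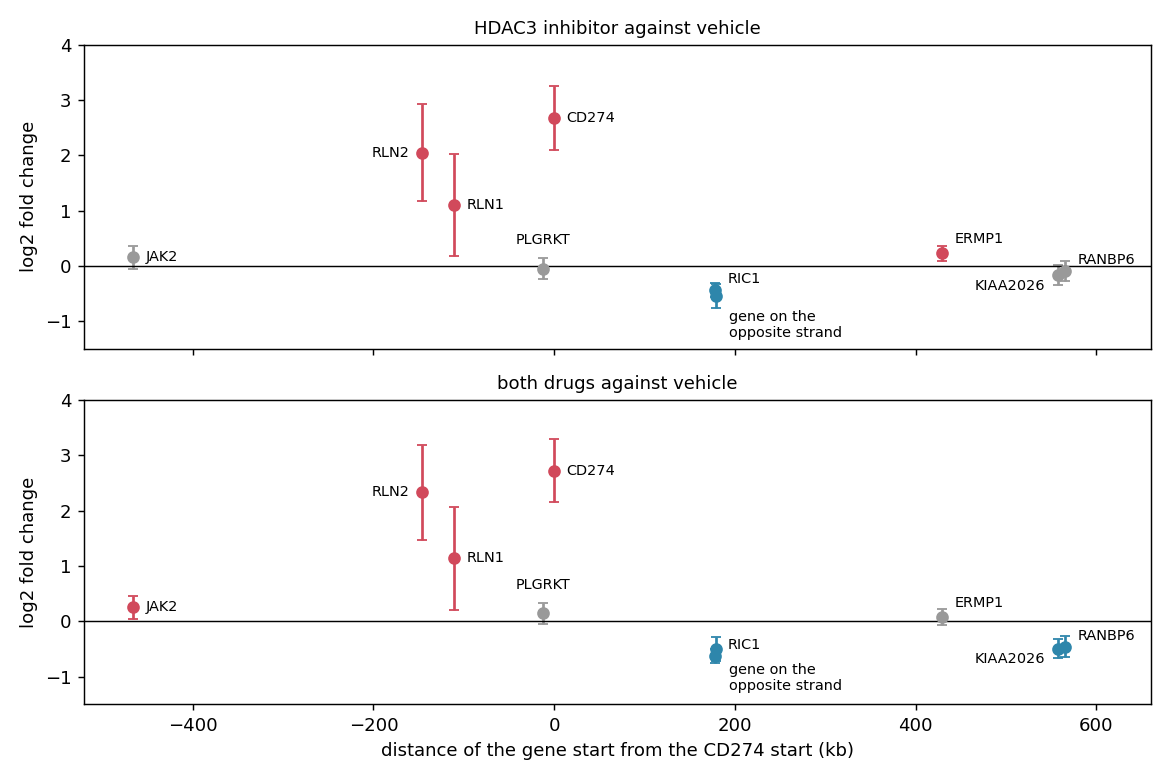
Log2 fold change with its 95% interval (vertical axis) of CD274 and the tested genes around it, against the distance of each gene start from the CD274 start in kb (horizontal axis), for the inhibitor (top) and the combination (bottom) against vehicle. Red marks genes called higher, blue lower and grey not called. CD274 at 2.67 and 2.72 is the highest point of each panel, and PLGRKT, 12.6 kb away, is grey in both.

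With the combination JAK2, the kinase below the interferon-gamma receptor, rose by 0.25 ± 0.10 (adjusted p = 0.0321), RLN2 by 2.33 (adjusted p = 2.63e-05) and RLN1 by 1.14 (adjusted p = 0.0314). RIC1 fell by 0.63, KIAA2026 by 0.49, RANBP6 by 0.46 and the opposite-strand gene by 0.50. PLGRKT (0.14) and ERMP1 (0.07) were not called.

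Of 25 genes known to regulate CD274, such as the interferon-gamma pathway and proteins that stabilise or degrade PD-L1, 24 were tested. With the inhibitor 10 rose and 5 fell (all genes, 26.4% and 24.9%), with a median of 0.12. The 4 of smallest adjusted p were IFNGR1, an interferon-gamma receptor chain, up by 0.54 ± 0.06 (adjusted p = 1.44e-08), IRF1, the interferon-regulated factor of the CD274 promoter, up by 0.76 ± 0.09 (adjusted p = 1.29e-07), HIP1R, up by 0.45 ± 0.06 (adjusted p = 2.92e-07), and CUL3, down by 0.40 (adjusted p = 7.2e-07). HIP1R and the ubiquitin ligase component CUL3 both belong to routes that remove PD-L1 protein, and they moved in opposite directions. IRF1 had a mean of 9.31 CPM in vehicle, 15.8 with the inhibitor, 10.5 under 5-azacitidine and 18.7 under both drugs. With 5-azacitidine 1 of the 24 passed the test (all genes, 9.06%). That was MYC, which fell by 0.24 (adjusted p = 0.00607). With the combination 14 rose and 4 fell (all genes, 29.6% and 27.5%), led by IFNGR1 at 0.65 ± 0.06 (adjusted p = 2.69e-10), IRF1 at 1.01 ± 0.09 (adjusted p = 4.32e-10), HIP1R at 0.52 and CUL3 at -0.48.

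Of 40 other ligands of the immune synapse, 31 were tested. With the inhibitor 20 rose and 3 fell (all genes, 26.4% and 24.9%), with a median of 0.29. TNFSF9, the 4-1BB ligand, rose by 1.45 ± 0.06 (adjusted p = 2.24e-17), the galectin LGALS1 by 2.46 ± 0.11 (adjusted p = 2.24e-16), the activation marker CD83 by 1.26 ± 0.06 (adjusted p = 1.48e-15) and the lymphocyte receptor SLAMF1 by 3.71 ± 0.30 (adjusted p = 5.8e-11). TNFSF9 had a mean of 33.3 CPM in vehicle and 91.3 with the inhibitor, and CD83 went from 31.0 to 74.6 CPM. With 5-azacitidine 5 rose and 2 fell (all genes, 4.31% and 4.75%), with a median of 0.12. LGALS1 rose by 0.80 ± 0.12 (adjusted p = 4.37e-05), TNFSF9 by 0.36 ± 0.06 (adjusted p = 0.000115), CD83 by 0.35 ± 0.06 (adjusted p = 0.000396) and the TNF-family ligand TNFSF15 by 1.02 ± 0.21 (adjusted p = 0.00157). With the combination 22 rose and 2 fell (all genes, 29.6% and 27.5%), with a median of 0.40. TNFSF9 was then at 115 CPM and CD83 at 114. The combination exceeded the inhibitor for 7 of the 31 and was lower for 0 (all genes, 4.51% and 2.83%), among them TNFSF9 at 0.34 ± 0.05 (adjusted p = 0.000165), LGALS1 at 0.61 ± 0.09 (adjusted p = 7.14e-05) and CD83 at 0.62 ± 0.06 (adjusted p = 1.62e-07).

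Receptors of the members are mostly genes of T cells, and 6 of 11 were tested. CD28, the receptor of CD80 and CD86, had a mean of 146 CPM in vehicle, 210 with the inhibitor, 173 under 5-azacitidine and 222 under both drugs. The T- and NK-cell markers beside it are given above: CD8A was at 0 in every group. CD3E and TRAC, among the 6 that rose with the inhibitor, changed by 2.66 and 1.43, and TRBC2, the 1 that fell, by -0.27. The part of these markers in the CD28 result was not tested. CD28 rose with the inhibitor by 0.52 ± 0.06 (adjusted p = 1.01e-08) and with 5-azacitidine by 0.24 ± 0.06 (adjusted p = 0.00587). HAVCR2, the TIM-3 receptor of galectin-9, rose with the inhibitor by 1.55 ± 0.12 (adjusted p = 5.77e-11) from 3.73 to 11.0 CPM. CD27, the receptor of CD70, rose with the inhibitor by 0.49 ± 0.09 (adjusted p = 3.9e-05) and with 5-azacitidine by 0.28 ± 0.09 (adjusted p = 0.0483). SELPLG, the PSGL-1 adhesion protein that can bind VSIR, fell with the inhibitor by 0.18 (adjusted p = 0.0347) and rose with 5-azacitidine by 0.31 ± 0.07 (adjusted p = 0.00475). In all, 3 rose and 1 fell with the inhibitor (all genes, 26.4% and 24.9%). With 5-azacitidine 4 rose and 0 fell (all genes, 4.31% and 4.75%), and with the combination 4 rose and 1 fell (all genes, 29.6% and 27.5%). PDCD1 (PD-1), CTLA4 and ICOS were not tested and had at most 14 counts in a group, and CD40LG had 0 counts in all libraries.

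CD40 signals through TRAF adaptors to NF-kB, and 22 of 23 genes of that route were tested. With the inhibitor 6 rose and 12 fell (all genes, 26.4% and 24.9%), with a median of -0.23 beside 0.00 for all genes. TRAF1 rose by 0.80 ± 0.06 (adjusted p = 4.5e-11) and TRAF3, which restrains the non-canonical arm, by 1.13 ± 0.11 (adjusted p = 3.49e-09). NFKB2 and RELB, the subunits of that arm, fell by 0.76 (adjusted p = 9.59e-11) and 0.79 (adjusted p = 8.3e-10). CD40 itself was not called in that comparison. With 5-azacitidine 5 rose and 3 fell (all genes, 4.31% and 4.75%). BIRC3, an inhibitor of apoptosis and NF-kB target, rose by 0.43 ± 0.07 (adjusted p = 6.77e-05) and REL by 0.48 ± 0.11 (adjusted p = 0.00387), while the adaptor TRAF2 fell by 0.39 (adjusted p = 9.68e-05). With the combination 6 rose and 12 fell (all genes, 29.6% and 27.5%), with a median of -0.19. TRAF2 fell by 0.74 (adjusted p = 1.21e-10) and RELB by 0.76 (adjusted p = 1.07e-09), and TRAF1 and TRAF3 rose by 0.82 ± 0.06 and 1.28 ± 0.11.

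For each tested member, the genes with the most similar profile were found by Pearson's r of log2 CPM over the 12 libraries among 13098 genes of at least 1 CPM. The 12 libraries share the same 4 groups, so r mainly reflects group means and is a description. CD86 was most like SPSB1 (0.996), BMF (0.995) and TMX4 (0.993), and CD274 like ZFP36L1 (0.995), PIGT (0.991) and ID2 (0.991). VSIR was most like SV2A (0.999), RTN4RL2 (0.996) and REPIN1 (0.996), and LGALS9 like SPIB (0.978), PDCD4 (0.977) and STK17A (0.972). CD80 was most like TLR7 (0.982), SNX20 (0.981) and IGHV4-31 (0.976). The members with smaller changes had lower values. CD40 was most like TNNI2 (0.970), ENSG00000232124 (0.942) and NQO1 (0.940), CD70 like LRRC25 (0.975), MKLN1-AS (0.962) and CCDC28B (0.957), and ICOSLG like its own second entry (0.936), C15orf62 (0.929) and HSH2D (0.917).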

How the data were processed

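The 12 libraries were grouped by their titles. The authors deposited 1 table of expected counts. Its reads were assigned to exons by featureCounts 2.1.1, per the file headers, with the genes of the Ensembl release 114 annotation of GRCh38, with multi-mapping reads split into fractions, for paired input and without regard to strand. The submitters' processing notes also name STAR 2.7.11b, cutadapt 5.1 and Subread 2.1.2, with no order or settings. The header does not settle whether reads or read pairs were counted. Of the values, 96.86% were whole within 1e-06. Another 4 libraries among the 16 in the header were not analysed here. Symbols came from the name table, which held 61461 of the 78892 gene identifiers.

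Counts were rounded and fitted in R 4.3.3 with edgeR 4.0.16: filterByExpr on the 4 groups (17869 genes, 99.93% of counts), TMM scaling, 1 mean per group over all 12 libraries, two-sided quasi-likelihood F-tests and Benjamini-Hochberg adjustment over all tested genes. The biological coefficient of variation was 6.05%. CPM is counts divided by the library total (35947872 to 36337086) times 1000000, without the TMM factor, and this depth sets an upper limit of 3 counts for a gene at 0. Fold change intervals are 95% intervals from the SE of the fit. The fit was tested on simulated counts. Tables and figures used Python 3.11.15 with pandas 2.3.3, numpy 2.4.6, matplotlib 3.10.9 and scipy 1.17.1.

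The members and gene lists were chosen with earlier results of these data known. Named were all members, up to 4 genes of smallest adjusted p per pathway list in each comparison with vehicle, copies and overlapping genes, tested genes within 500 kb of CD274 and PDCD1LG2, and the 3 most similar profiles per member. Further genes named in the text (receptor genes at low counts, marker genes, combination values of listed examples) were chosen after their values were seen. Alternatives were other scalings, no filter and a stricter filter of 5 CPM in 3 libraries, DESeq2 1.42.0, limma voom 3.58.1, only the groups compared, replicate numbers as a block, and leaving out each library. Added after seeing the data were summed copies, a fit without the 2 libraries of highest mitochondrial share, and a fit without the mitochondrial genes.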

Additional observations from a re-analysis of the deposited data

How the results depend on the processing

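For the 8 tested members in 6 comparisons, 48 results were recomputed under 25 settings. Of 927 values, 895 kept their side of the threshold, 20 lost the call and 12 gained it. The sign changed in 23 values, none of them called, such as CD274 in the combination over the inhibitor (-0.15 without the 2 libraries of high mitochondrial share). The changed calls fell on 8 results: ICOSLG in 3 comparisons, CD40 in 2, LGALS9 in 2 and CD70 in 1. The calls of CD86, CD80, CD274 and VSIR held under every setting that tested them. The stricter filter of 5 CPM left out CD80, CD274 and LGALS9, and CD80 with the inhibitor was also not tested with only those groups fitted, which left 5 member calls. Beside the values given with the genes, ICOSLG lost its call of the combination over the inhibitor with library totals (adjusted p = 0.0686), limma voom (0.0557) and only those groups fitted (0.0968). CD70 in the combination over 5-azacitidine gained one with voom (0.0467) and the stricter filter (0.00307), as did CD40 with that filter (0.0125). Under that filter the estimates themselves moved in this comparison, from 0.14 to 0.21 for CD70, from 0.09 to 0.16 for CD40 and from -0.23 to -0.16 for ICOSLG. Small changes of these genes thus depend on the filter. Over all genes, the interaction gave 128 calls, and 314 without a filter, 204 with the stricter filter, 388 with DESeq2 and 227 with a replicate block by the numbers of the library names. The cause of these shifts was not tested. Leaving out 1 library gave 35 to 689 interaction calls, the highest without combination replicate 2 and 193 without 5-azacitidine replicate 1, and under 128 without any other library. It gave 1017 to 1437 calls for 5-azacitidine against vehicle (lowest without vehicle replicate 1), 8233 to 8568 for the inhibitor, 9538 to 10098 for the combination, 8915 to 9511 for the combination against 5-azacitidine and 690 to 1848 against the inhibitor. In that last comparison, 702, 750 and 690 calls were left without inhibitor replicates 1, 2 and 3, and 791 and 839 without combination replicates 1 and 3. Member calls ranged over 4 to 5, 6 to 6, 7 to 8, 5 to 7 and 2 to 3 in the same order, and 0 to 0 in the interaction, each with fewer libraries fitted. Same-numbered libraries of different groups did not deviate together: correlations of their deviations were -0.0591 to 0.0665 over 18 pairs by title and -0.0342 to 0.0665 over 13 pairs by library name, none over 0.1. With the title number as a replicate block, the member calls were 6, 5, 7, 7, 4 and 0, where CD70 in the combination over 5-azacitidine was gained (adjusted p = 0.0476), and with the library number 6, 5, 8, 6, 4 and 0, where ICOSLG in the combination over vehicle was gained (0.20, adjusted p = 0.0383). Depth limited CD80, PDCD1LG2, CD276 and the vehicle values of CD274 and LGALS9.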
